A study of Rattus norvegicus with 6 samples.

Results

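The genes described are 9 that mark acinar cells, the exocrine cells of the pancreas, and they were chosen by symbol: the proteases Ctrb1, Prss1, Cpa1 and Cpb1, the lipases Cel and Pnliprp1, the zymogen granule protein Gp2 and the transcription factors Rbpjl and Ptf1a. All 9 symbols were found among the 17321 genes counted, and 8 of the 9 passed the filter on low counts, which left 12276 genes for testing. Ptf1a did not pass. RNA sequencing was done on islets of fetal Sprague Dawley rats at gestational day 22, in 3 libraries labelled control and 3 labelled high glucose, each from 2 pooled pancreata. The high glucose group came from the left uterine horn, where glucose (4 mg/min) was infused over 48 h beginning on gestational day 20, and the control group came from the right horn of the same pregnancy, described in the series design as normoglycemic. The treatment text of the samples gives the infusion for all 6, controls included, so what the controls received rests on the design and the treatment label. The titles tie the libraries into 3 pairs, taken here as 3 dams. Islets of both groups were released by collagenase, hand-selected and then cultured in RPMI (5 mM glucose) over 24 h, so the RNA was taken after this recovery and not at the end of the infusion. The side of the uterus went with the treatment in every pair, so side and glucose cannot be told apart. In 6 of 6 libraries the horn letter of the deposited file is the opposite of that in the sample title. Directions here follow the treatment labels and would all turn under the file naming.

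Total counts lay between 18077841 and 30993532 per library. The tissue label was checked on endocrine genes. Ins1, an insulin gene, averaged 8017 ± 3243 CPM (counts scaled by the TMM library size) in control pools and 5934 ± 3127 CPM in high glucose pools, and Gcg, the glucagon gene, 3112 ± 1313 and 2735 ± 1556 CPM (SD, n = 3 libraries each). Col3a1, a collagen gene of connective tissue cells, was also abundant, at 12017 ± 6198 and 12401 ± 3539 CPM.

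Acinar cells make the digestive enzymes of the gut, store them as inactive zymogens in granules and release them into the ducts. Their identity rests on the PTF1 complex, in which Ptf1a pairs with a common E protein on an E box and is joined by Rbpjl, the pancreatic relative of Rbpj, on a neighbouring TC box. Ptf1a also acts earlier, in the progenitors of the whole pancreas, and Cpa1 marks the progenitors at the tips of the branching epithelium before it becomes an acinar enzyme. In islet preparations these genes can be read as a sign of exocrine tissue beside the endocrine cells, a reading that was not tested here. In bulk RNA, fewer cells of a type and less RNA per cell cannot be told apart.

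In these islets the levels of the acinar genes differed widely between dams, and the difference between the treatments was not alike in the 3 pairs. The summed counts of the 9 genes took 0.02354%, 0.1% and 0.003149% of all counts in the control libraries of pairs 1 to 3 and 0.01664%, 0.1502% and 0.07506% in their high glucose partners. The ratio of high glucose to control was thus 0.7069 in pair 1, 1.502 in pair 2 and 23.84 in pair 3. The 3 control libraries alone spanned the range from 0.003149% (exact Clopper-Pearson 95% interval 0.002951% to 0.003357%, counting error only) to 0.1% (0.09855% to 0.1015%). Of the 8 members tested, 0 passed the edgeR test across all genes at an adjusted p below 0.05, beside 0.0163% of all genes, and 0 had an unadjusted p below 0.05, beside 4.82%.

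The promoters are shown for 3 members: Ctrb1, which held the most counts of the 9, Cel, which carries the same kind of paired motif, and Rbpjl, whose levels departed from those of the enzymes. Each run is the 250 bases before the RefSeq start of the gene in the GRCr8 assembly, 5′ to 3′ on the gene's strand, with the letters CACCTG (the E box bound by Ptf1a), TTTCCCA (the TC box) and AAGGTCA (letters bound by nuclear receptors such as Nr5a2), on either strand, in capitals. The runs lie at chr19:56566979-56567228 (minus strand), chr3:32289020-32289269 (minus strand) and chr3:173553248-173553497 (plus strand).
Ctrb1: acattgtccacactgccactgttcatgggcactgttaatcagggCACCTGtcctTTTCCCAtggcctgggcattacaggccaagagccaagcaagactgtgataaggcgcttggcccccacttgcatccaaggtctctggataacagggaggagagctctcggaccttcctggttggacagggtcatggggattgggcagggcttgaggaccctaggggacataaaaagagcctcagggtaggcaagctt
Cel: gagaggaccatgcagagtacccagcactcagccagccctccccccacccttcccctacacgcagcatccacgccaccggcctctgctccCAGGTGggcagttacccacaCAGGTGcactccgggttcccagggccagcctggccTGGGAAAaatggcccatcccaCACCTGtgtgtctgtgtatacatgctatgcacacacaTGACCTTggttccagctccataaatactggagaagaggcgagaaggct
Rbpjl: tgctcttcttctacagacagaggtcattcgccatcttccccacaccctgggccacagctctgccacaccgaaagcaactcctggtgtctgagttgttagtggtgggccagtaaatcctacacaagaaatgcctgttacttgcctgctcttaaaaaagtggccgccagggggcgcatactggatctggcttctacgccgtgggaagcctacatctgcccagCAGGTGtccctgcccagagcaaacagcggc
In Ctrb1 the E box lies at -206 to -201 and the TC box at -196 to -190 from the start, both on the gene's strand. In Cel the pair lies in the opposite orientation between -106 and -80, beside 2 further E boxes. Rbpjl has a single CACCTG match, at -30 to -25, and no TTTCCCA.

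All 9 members had a window in the RefSeq table, which runs from 250 bases before to 50 bases after the start, and motifs were searched on both strands. CACCTG, whose matches are a subset of the general E box CANNTG, was present in 6 of the 9 (Cpb1, Cel, Pnliprp1, Ctrb1, Prss1 and Rbpjl) and in 18.8% of all 33469 windows. CANNTG was present in 8 of 9 and in 72.1% of all windows. TTTCCCA was present in 3 (Cel, Ctrb1 and Prss1) and in 8.23%. The layout of a PTF1 site was searched as CANNTG with TTTCCC on the same strand, starting 8 to 30 bases after the first base of the CANNTG. Such a pair was present in Cel and Ctrb1 and in 2.84% of all windows. AAGGTCA was present in Cel alone of the 9 and in 4.61% of all windows. These are matches of letters and not measured binding.

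Levels were compared per kilobase of the counted gene model. The level of Ctrb1, a chymotrypsinogen, averaged 426.7 CPM per kb over the 6 libraries (20.58 to 1106), that of Pnliprp1 97.26 (3.272 to 288.1), of Cpa1 60.93 (2.297 to 145.5) and of Cel 21.63 CPM per kb (1.207 to 47.43). The level was 4.555 CPM per kb for Prss1, 3.109 for Cpb1, 1.917 for Gp2, 1.386 for Rbpjl and 0.2004 for Ptf1a. Ctrb1 was the highest and Ptf1a the lowest of the 9 in 6 of 6 libraries. Of neighbours in this order, Prss1 was above Cpb1 in only 2 of 6 libraries, so these neighbours were not separated. Rbpjl was the 8th of the 9 in both libraries of pairs 1 and 2 but the 4th in the control library of pair 3, where its level of 1.25 CPM per kb was above those of Cel (1.21), Cpb1 (0.511) and Prss1 (0.382). Pnliprp1 was above Cpa1, Cpb1 above Gp2 and Gp2 above Rbpjl in 5 of 6 each, and the other neighbours kept their order in all 6.

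**Figure D1:**
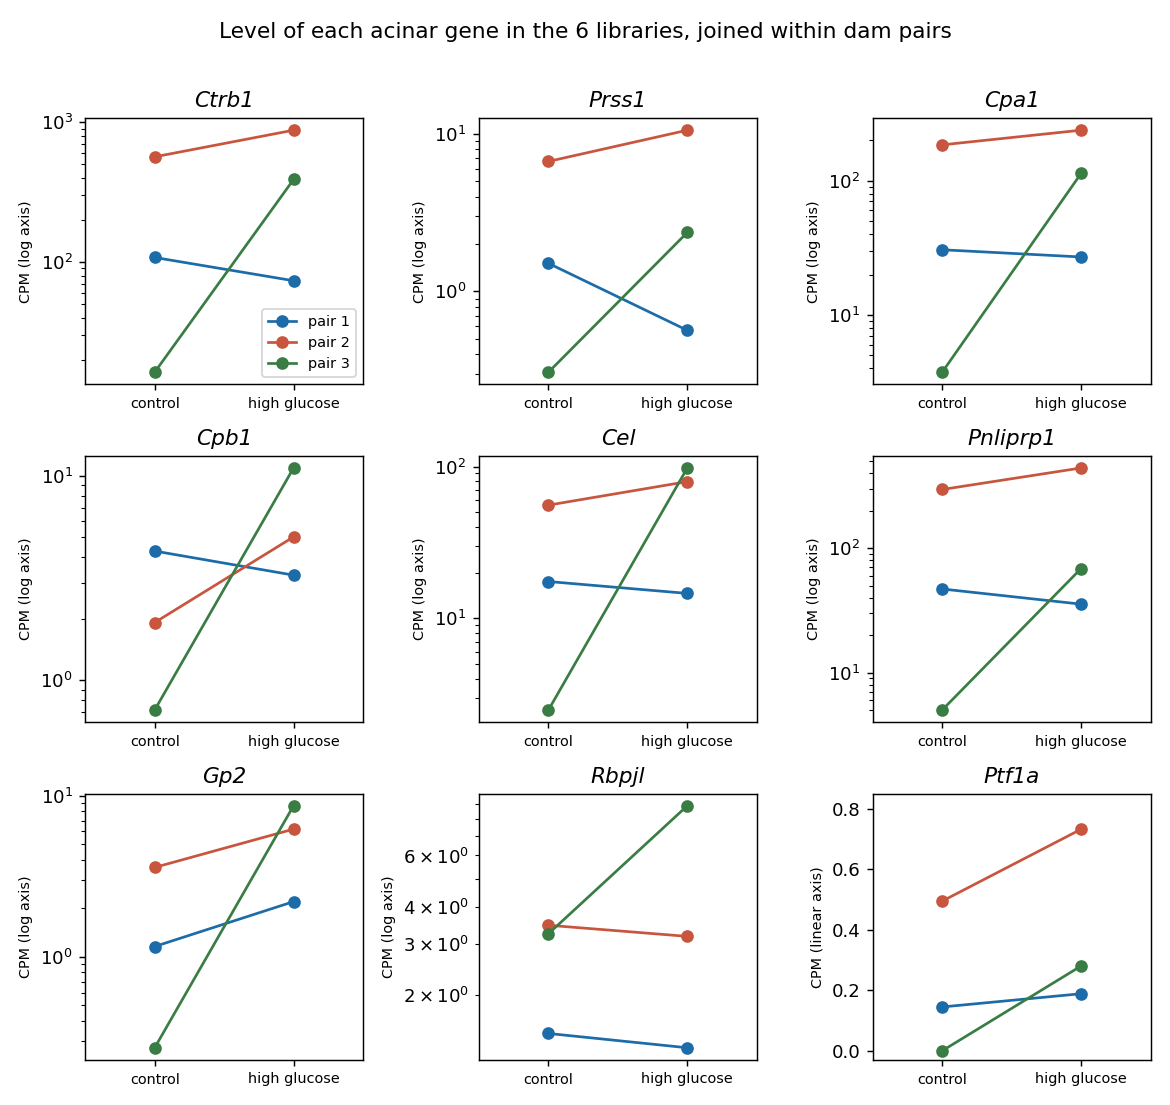
Level of each of the 9 genes in CPM (log axes, linear for Ptf1a) in the control and high glucose library of each dam pair, with a line joining the libraries of a pair. The control library of pair 3 is the lowest point for every gene except Rbpjl.

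The proteases are made as zymogens and cleave dietary protein. Ctrb1 (rn6 chr19:43906344-43911020) stood at 107.8, 565.1 and 16.3 CPM in the control libraries of pairs 1 to 3 and at 73.5, 876.1 and 389.2 CPM in their high glucose partners. The pair 2 libraries were the highest and the control library of pair 3 the lowest, and the groups overlapped. Its fitted log2 difference, high glucose minus control, was 1.32 (SE 1.63, 95% interval -4.86 to 7.51).
Prss1, a trypsinogen and the activator of the other zymogens once cleaved (chr4:70776046-70779249), stood at 1.51, 6.68 and 0.307 CPM in the controls of pairs 1 to 3 and at 0.566, 10.5 and 2.37 CPM in their partners. Its order of libraries was that of Ctrb1, with the groups overlapping, and its fitted log2 difference was 0.66 (SE 0.81, 95% interval -1.29 to 2.62). Trypsinogens have near-identical copies, and the counting dropped reads that map to several places, so its level may be understated, and 2 other trypsin genes, Try4 and Try10, are listed at 0 in all libraries.
Cpa1, a carboxypeptidase that trims peptides from the carboxyl end (chr4:57952982-57959109), stood at 30.6, 184.8 and 3.75 CPM in the controls of pairs 1 to 3 and at 27.0, 237.6 and 113.2 CPM in their partners. Between the control libraries of different dams it varied 49.26-fold, and the ratio of high glucose to control was 0.8836 in pair 1, 1.286 in pair 2 and 30.17 in pair 3 (counting interval 24.96 to 36.82). Its groups overlapped, and the fitted log2 difference was 1.37 (SE 1.66).
Cpb1, the carboxypeptidase for basic residues (chr2:105059295-105089682), stood at 4.29, 1.92 and 0.716 CPM in the controls of pairs 1 to 3 and at 3.27, 5.03 and 10.9 CPM in their partners. It was the exception among the proteases in that pair 2 was not its highest pair. Its high glucose libraries of pairs 2 and 3 were above all controls, that of pair 1 was not, and the fitted log2 difference was 1.56 (SE 0.91, 95% interval -0.75 to 3.86).

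Both lipases were again lowest in the control library of pair 3. Cel, the bile salt dependent lipase (chr3:7134021-7141522), stood at 17.5, 55.7 and 2.49 CPM in the controls of pairs 1 to 3 and at 14.6, 79.5 and 97.8 CPM in their partners, a ratio of 0.8349, 1.429 and 39.29 in pairs 1 to 3. This was the largest ratio within pair 3 among the members with counts in both libraries (counting interval 31.15 to 50.25). The groups overlapped, with a fitted log2 difference of 1.47 (SE 1.80). Pnliprp1, a lipase relative with little activity of its own (chr1:279867034-279882663), stood at 47.0, 296.4 and 5.01 CPM in the controls of pairs 1 to 3 and at 35.5, 441.4 and 68.6 CPM in their partners. Its control libraries spanned 59.13-fold, the widest range of the members tested, and overlapped the high glucose libraries. Its fitted log2 difference was 1.16 (SE 1.24). The classical lipase Pnlip, an abundant enzyme of the adult gland that rodents turn on around weaning, had 0 to 2 counts per library, although Pnliprp1 had 147 to 9040. Pnlip is named here after its values were seen.

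Gp2, the main membrane protein of zymogen granules (chr1:189166747-189182306), stood at 1.16, 3.59 and 0.273 CPM in the controls of pairs 1 to 3 and at 2.20, 6.20 and 8.66 CPM in their partners. It was the only one of the 8 tested members that was higher in high glucose in all 3 pairs, with within-pair log2 differences of 0.88, 0.78 and 4.66, although the groups overlapped between dams. Its fitted log2 difference of 1.96 (SE 0.92, 95% interval -0.33 to 4.26) was the largest of the members and had an edgeR quasi-likelihood p of 0.0804 before adjustment and an adjusted p of 0.9996. One member of 8, or 12.5%, higher in every pair stands beside 11.7% of all genes tested.

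The transcription factors were low. Ptf1a (chr17:86199623-86201477) had 5, 8 and 0 counts in the control libraries and 6, 15 and 9 in high glucose. All 3 pairs were higher in high glucose, but the counting intervals of the ratio in pair 1 (1.302, 0.3311 to 5.393) and pair 2 (1.48, 0.5891 to 4.031) included no change. In pair 3, with 0 counts in control, the counting interval of the ratio began at 1.802. Rbpjl (chr3:160852164-160864534) stood at 1.48, 3.46 and 3.24 CPM in the controls of pairs 1 to 3 and at 1.32, 3.17 and 8.87 CPM in their partners. It ranged 2.344-fold over the control libraries, where the other tested members ranged from 5.988-fold to 59.13-fold. Its fitted log2 difference was 0.41 (SE 0.45, 95% interval -0.59 to 1.40), and its ratio of high glucose to control was 0.8935 in pair 1 (counting interval 0.5795 to 1.371), 0.9163 in pair 2 (0.6311 to 1.334) and 2.739 in pair 3 (2.164 to 3.493). The intervals of pairs 1 and 2 included no change.

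**Figure D2:**
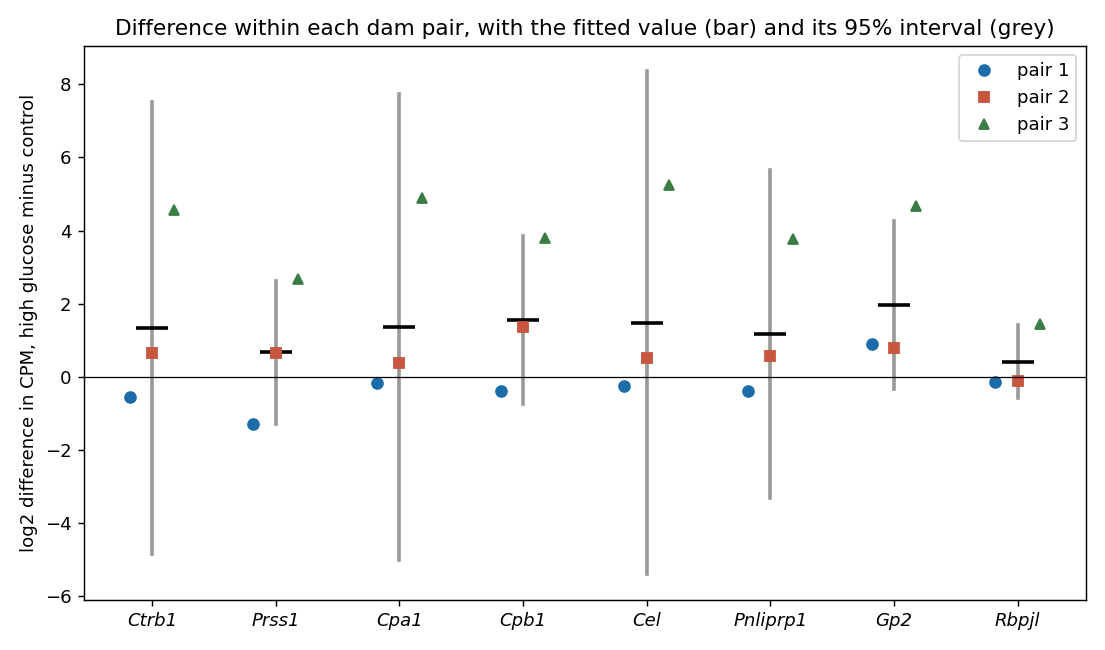
Log2 difference in CPM (high glucose minus control) within each of the 3 dam pairs for the 8 tested genes, with the fitted difference as a black bar and its 95% interval in grey. Pair 3 is the highest point for each gene, and every interval includes 0.

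The comparison of the treatments addresses, for these genes, the study's question of how hyperglycemia alters the fetal islet transcriptome. Of the 8 members tested, 0 passed at an adjusted p below 0.05 (edgeR quasi-likelihood with the pair as a block), beside 0.0163% of all genes tested, and 0 had an unadjusted p below 0.05, beside 4.82%. Restricted to higher genes, the share of all genes with an unadjusted p below 0.05 was 1.67%. DESeq2 called 0 members (0.73% of all genes) and limma voom 0 (0.00815%). At an unadjusted p below 0.05 DESeq2 had 2 members, Cpb1 and Gp2 (4.53% of all genes), and limma voom had 1, Gp2 (5.91%). Other settings called 0 members too, beside 0.0326% of all genes with upper quartile factors, 0.0453% among genes averaging 50 counts or more, 0.124% when no filter was used, and 0.148%, 0.145% and 0.447% without pairs 1, 2 and 3. Without pair 1, Cpb1 and Prss1 had an unadjusted p below 0.05, beside 6.18% of all genes. The adjusted p was 0.9996 for each of the 8. All 8 fitted differences were above 0, with a median of 1.35 against 0.00 over all genes, but pair 3 set this value. The median within-pair log2 difference of the 8 was -0.32 in pair 1, 0.60 in pair 2 and 4.19 in pair 3, against 0.00, 0.02 and -0.02 over all genes. Members above 0 numbered 1 of 8 in pair 1, 7 in pair 2 and 8 in pair 3. Without pair 3 the fitted median was 0.10, and Prss1 and Rbpjl turned to -0.28 and -0.14. That median is over 9 members, since Ptf1a passed the filter there.
The intervals do not show that the levels were alike: for Cel the interval ran from -5.42 to 8.37, and for Pnliprp1 from -3.33 to 5.66.

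The spread of the members was wide even beside other genes of these libraries. The SD of log2 CPM over the 6 libraries had a median of 1.93 for the 8 members and 0.44 for all genes tested, and Cpa1, Cel, Pnliprp1 and Ctrb1 lay above the 99th percentile. Rbpjl had the smallest SD, 0.97. The control library of pair 3 was the lowest of the 6 for 8 of the 9 members, where 13.2% of all genes tested had their lowest value. The exception, Rbpjl, was lowest in the high glucose library of pair 1, as were 16.5% of all genes. Both libraries of pair 2 were above all 4 others for Cpa1, Pnliprp1, Ctrb1 and Prss1, beside 21.2% of all genes.
Gene length also separated pair 1 from pair 2, whereas the libraries of pair 3 went opposite ways. Genes with models of up to 1000 bases had a median log2 deviation from their own mean of 0.32 and 0.37 in the pair 2 libraries and -0.28 and -0.35 in those of pair 1, and genes over 4000 bases -0.30 and -0.25 in pair 2 and 0.25 and 0.28 in pair 1. In pair 3 the short genes were at 0.13 in control and -0.17 in high glucose. The members' models span 792 to 2592 bases, and their deviations were larger (median profile 1.42 and 1.94 in pair 2, -3.06 and 1.38 in pair 3). The part of length in the differences between dams was not tested.

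The enzymes differed less in their proportions to each other than in their levels. Ctrb1 made up 46.45% to 55.6% of the members' counts in every library, although the sum ranged from 941 to 34005 counts. Per 100 counts of Cpa1 there were 271.7 to 434.5 counts of Ctrb1, 60.63 to 185.8 of Pnliprp1 and 30.12 to 86.41 of Cel, whereas the level of Cpa1 itself ranged 63.33-fold.
Rbpjl and Cpb1 did not keep such proportions. Rbpjl had 1.336 to 7.84 counts per 100 of Cpa1 in 5 libraries and 86.36 in the control library of pair 3, where 95 of the 941 member counts were its own (10.1%, exact Clopper-Pearson 95% interval 8.245% to 12.2%, against 0.1911% to 1.268% elsewhere). So in the library with the least enzyme RNA, Rbpjl stayed at 3.24 CPM, close to the 3.46 CPM of the control library of pair 2, where Cpa1 was 49.26 times higher. Cpb1 had 1.037 and 2.117 counts per 100 of Cpa1 in pair 2 and 9.656 to 19.09 in the other 4 libraries. Gp2 was also lowest relative to Cpa1 in pair 2, at 1.941 and 2.61 against 3.788 to 8.14.

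**Figure D3:**
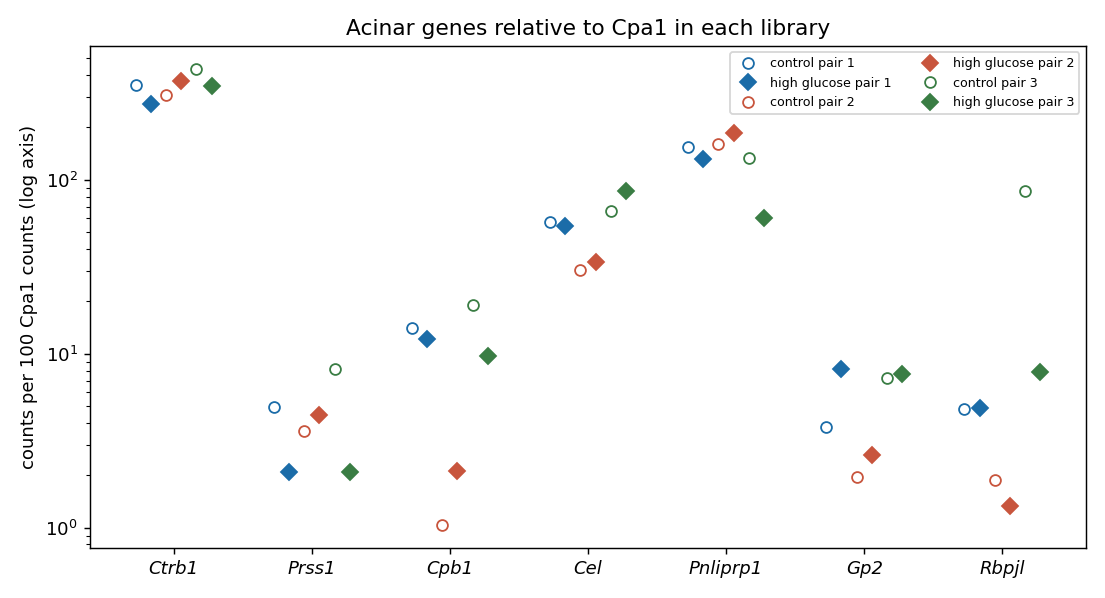
Counts of 7 members per 100 counts of Cpa1 in each library (log axis), with open circles for control and filled diamonds for high glucose, coloured by pair. Ctrb1 stays between 271.7 and 434.5, whereas Rbpjl stands at 86.36 in the control library of pair 3 and Cpb1 is lowest in pair 2.

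Other products of acinar cells were compared next. Of 30 further enzymes and secretory proteins, 29 were in the files and 20 passed the filter. Of the 20, 0 were called by edgeR and 0 had an unadjusted p below 0.05, beside 0.0163% and 4.82% of all genes tested. Fitted differences were above 0 in 16 of the 20, beside 6222 of 12276 genes. Their median was 0.95, against 0.00 over all genes. As for the members, the pairs were not alike. The median differences of the 20 in pairs 1 to 3 were -0.73, 0.70 and 3.61, and 4, 19 and 18 genes were above 0. Of the 20, 3 were higher in all 3 pairs (15%, beside 11.7% of all genes tested), Reg1a and Reg3b among them. In 16 of the 20 the control library of pair 3 was the lowest, as it was for 13.2% of all genes tested. Amy2a3, a pancreatic amylase, stood at 38.8, 156.9 and 4.30 CPM in the controls of pairs 1 to 3 and at 25.8, 222.3 and 72.5 CPM in their partners. Reg1a, a secreted lectin-like protein, stood at 12.2, 71.4 and 2.52 CPM in the controls of pairs 1 to 3 and at 13.6, 164.3 and 158.4 CPM in their partners.
Reg3b, a relative of Reg1a known as a protein of pancreatic inflammation, stood at 10.7, 19.4 and 4.13 CPM in the controls of pairs 1 to 3 and at 13.6, 310.4 and 71.1 CPM in their partners. The differences within pairs were 0.34, 3.99 and 4.08 on the log2 scale. With all pairs it was not called (log2 difference 2.93, SE 1.30, edgeR adjusted p = 0.9996). Without pair 1 it was, at 4.05 (edgeR adjusted p = 1.446e-09), in a fit on 4 libraries that called 0.148% of all genes. That p-value leans on how close the differences of pairs 2 and 3 happened to be. In the same fit Reg1a (3.45) and Reg3a, a further relative (4.46), were not called.
Others had no such difference in pair 3. Ctrc, another chymotrypsin relative, had log2 differences of -0.94, 0.76 and -2.30 in pairs 1 to 3. The last rests on only 40 counts in control and 7 in high glucose. Cela1, an elastase, had differences of -0.24, 0.12 and -0.03. Ctrc and Cela1 are named after their values were seen. Of the 9 genes of this list that did not pass, Try4, Try10, Klk1 and Rnase1 had 0 counts in all libraries.

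The regulators differed less between the libraries of pair 3. Of 12 tested, 0 were called by edgeR, 1 (Gata6, a factor of early pancreas, log2 difference 0.47) had an unadjusted p below 0.05, beside 0.0163% called and 4.82% of all genes at that p, and their median differences in pairs 1 to 3 were 0.08, -0.28 and 0.33. Xbp1, which builds up the secretory apparatus, averaged 335.2 ± 73.2 CPM in control pools and 298.8 ± 64.8 CPM in high glucose pools. Creb3l1, a membrane-bound factor of secretory cells, measured 260.9 ± 153 and 243.3 ± 64.8 CPM, and Tcf3, the gene of the common E proteins, 151.7 ± 26.3 and 182.8 ± 50.6 CPM (SD, n = 3). Nr5a2, a nuclear receptor that works with the PTF1 complex in acinar cells, was lower in both libraries of pair 2 than in all 4 others, as were 4 of the 12 regulators and 22.5% of all genes, and is named after its values were seen. It measured 9.33 and 8.71 CPM in pair 1, 1.05 and 0.488 CPM in pair 2, where most enzymes were highest, and 3.10 and 6.73 CPM in pair 3.
Of the 16 tested genes of secretion machinery 0 were called by edgeR, 2 (Muc1, an apical mucin, 0.73, and Erp27, 1.30, both as log2 differences) had an unadjusted p below 0.05 (1.67% of all genes were higher at that p), and the median was 0.05. Vamp8, a fusion protein of zymogen granules, measured 106.1 ± 21.6 and 96.7 ± 26.7 CPM, Slc38a5, an amino acid transporter, 138.7 ± 61.7 and 93.8 ± 48.5 CPM, and Itpr3, a calcium channel of the apical pole, 48.2 ± 18.3 and 64.2 ± 24.2 CPM. Gata6 and Muc1 are named for these p-values. Many genes of these last lists are also used by endocrine and other cells.

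**Figure D4:**
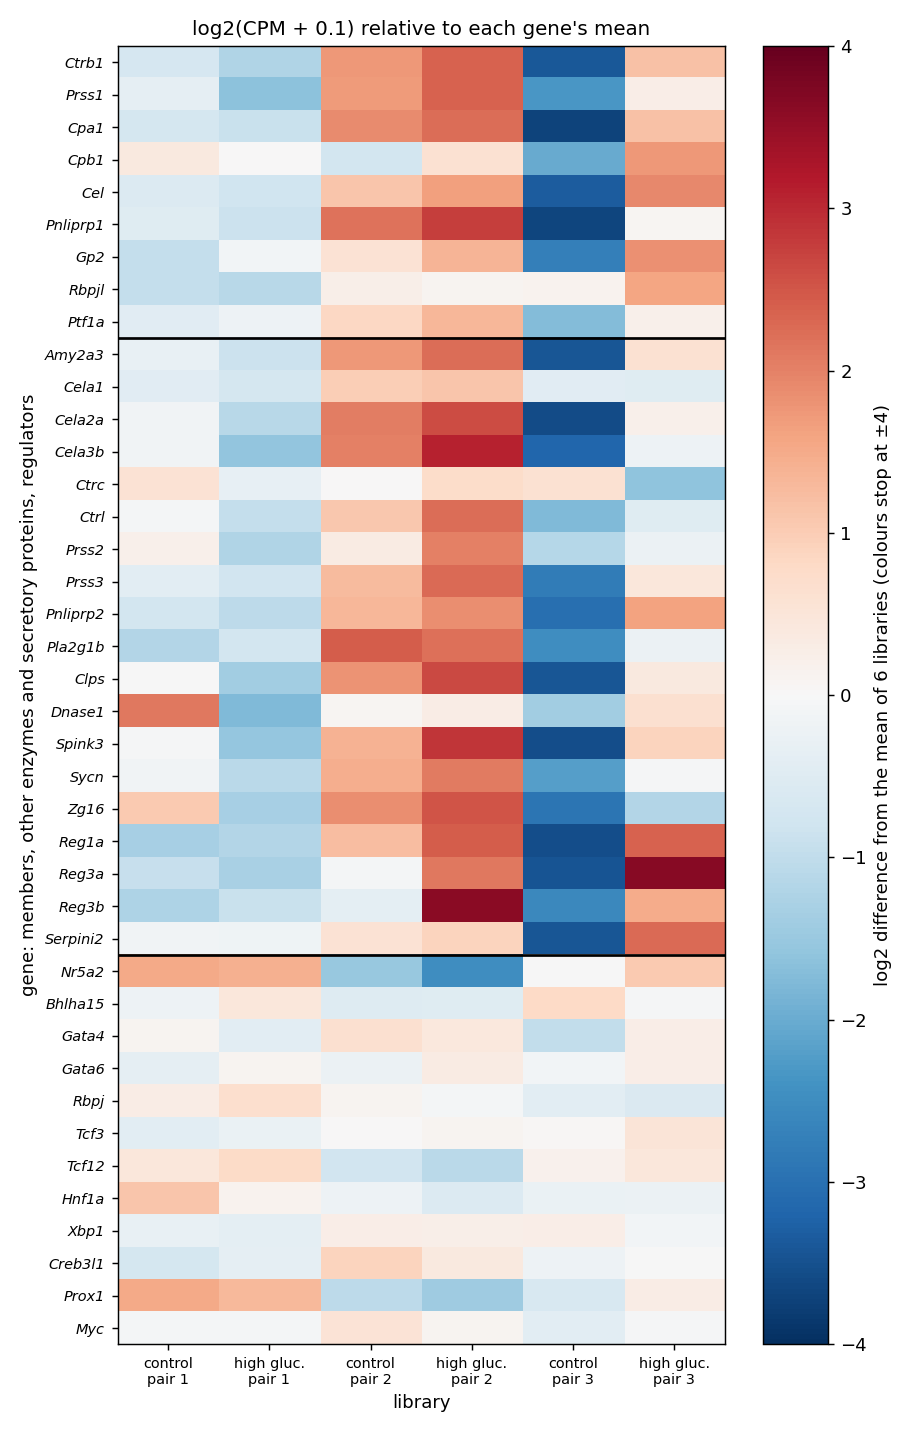
Log2 (CPM + 0.1) of each gene relative to its mean over the 6 libraries (red above, blue below), for the 9 members, 19 further enzymes and secretory proteins, and 12 regulators. Most enzymes are blue in the control library of pair 3 and red in pair 2, and Nr5a2 is blue in pair 2.

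The genes most like the members were searched among 11006 others with a mean count of at least 50, by the root mean square distance of their centred log2 CPM from the members' median profile over the 6 libraries. Among the closest were Pnliprp2, a lipase of the newborn gut, at 0.14, Amy2a3 (0.41), the trypsin gene Prss3 (0.41), Reg1a (0.59), Clps, the cofactor of lipase (0.63), the trypsin inhibitor gene Spink3 (0.65), the elastase gene Cela2a (0.69), the granule protein gene Sycn (0.70) and Erp27, a chaperone gene (0.72). These 9 belong to the lists of acinar genes given above. Of the members themselves, from which the profile was made, Ctrb1 was at 0.30. Pnliprp1 (0.75), Cpb1 (1.24) and Rbpjl (1.59) were farther than each of these 9. These distances are a description over 6 libraries from 3 dams.

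The acinar share was set beside those of other cell types. The 9 beta cell genes in the files took 1.25%, 1.21% and 2.24% of counts in the controls of pairs 1 to 3 and 1.96%, 0.975% and 0.530% in their partners. Their sum was higher in high glucose in pair 1 and lower in pairs 2 and 3, with Ins1 and Ins2 the most abundant, but 4 of the 9 genes were higher in pair 2. The 10 other endocrine genes had ratios of 1.377, 1.301 and 0.4413, so in pair 2 their sum was higher in high glucose, as was the acinar share. The 11 duct genes took 0.413%, 0.442% and 0.712% in the controls and 0.608%, 0.607% and 1.30% in their partners, higher in high glucose in every pair as a sum. Of the 11 genes, 5 were higher in all 3 pairs (45.5%, beside 11.7% of all genes tested). The 6 erythroid genes took 0.170%, 0.138% and 0.0382% in the controls and 0.0156%, 0.0569% and 0.00926% in their partners. The 9 leukocyte genes took 0.129%, 0.0790% and 0.0933% against 0.0834%, 0.0580% and 0.0544%. Both sums were lower in high glucose in every pair. By gene, 6 of 6 erythroid and 7 of 9 leukocyte genes were lower in all 3 pairs, beside 11.3% of all genes tested. Collagens and other mesenchymal genes had ratios of 1.273, 0.8971 and 0.94. Mast cell genes took 0.0023% to 0.0102% of counts. Most of these counts were of Kit, which was higher in high glucose in all 3 pairs, whereas Cpa3, Cma1 and Mcpt2 were lower in all 3. The part of these differences in tissue make-up in the acinar values was not tested.

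**Figure D5:**
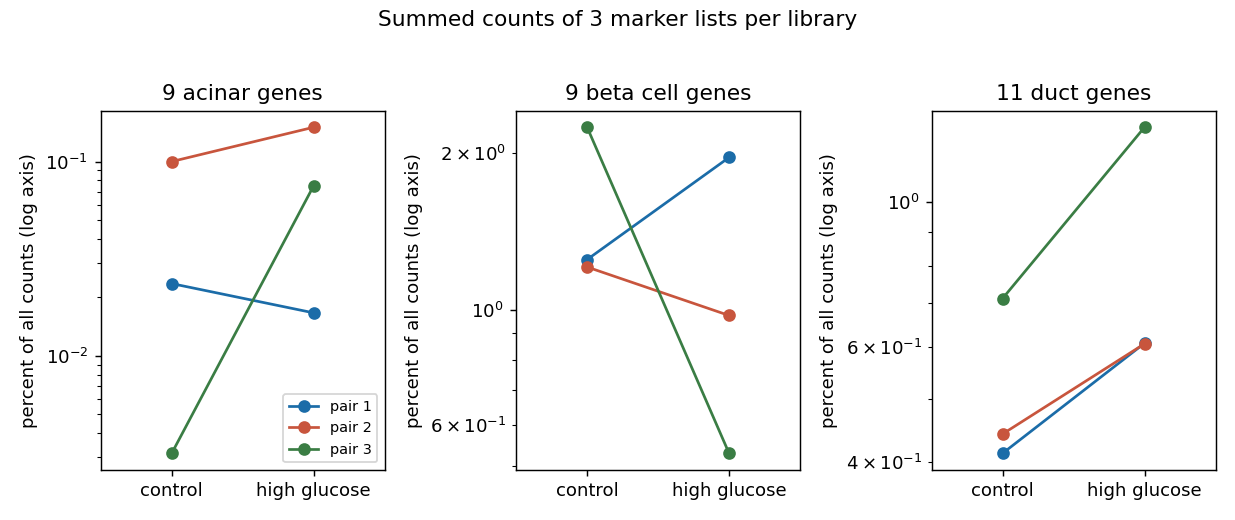
Percent of all counts held by the 9 acinar, 9 beta cell and 11 duct genes in each library (log axes), with lines joining the libraries of a dam pair. The control library of pair 3 is the lowest for the acinar sum and the highest for the beta cell sum, and each line is a sum in which the most abundant genes weigh most.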

How the data were processed

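Poly(A) RNA libraries of 6 islet pools were analysed. Each deposited table holds raw fragment counts for refGene models of rn6. The authors used featureCounts 1.5.1 in paired, reverse-stranded mode and dropped alignments of mapping quality below 10, per the file headers. STAR 2.5 and the builds rn6 and mm10 are named in the submitters' processing notes. The quality minimum removes reads shared by near-identical copies such as trypsin genes. The test was that of edgeR 4.0.16 under R 4.3.3 (TMM, filterByExpr, robust quasi-likelihood, pair plus treatment, Benjamini-Hochberg over all genes), with DESeq2 1.42.0 and limma 3.58.1 as alternatives. The tested genes held 99.95% of the counts. Log2 CPM used a prior count of 2. Whether libraries of a pair vary together was checked by the correlation of their deviations from the group means across genes, which was 0.474, 0.621 and 0.413 within pairs and -0.454 to -0.0045 between them. The series design is the source of the pairing, with the titles. Nothing says that the pairs came from separate litters beyond the titles. With the pair in the fit, p-values rest on how the treatment difference varied over these 3 pairs of pools, and not on the spread between pairs. The procedure was run on simulated counts, drawn gene by gene with the same treatment difference in every pair. The members' differences were not alike in the pairs, so that run does not show how the test performs on them.

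The members and lists were chosen with earlier results of these data known. The rule for named genes takes all 9 members, the called genes of the other acinar lists or else their 3 most abundant, the 10 genes most like the members (1 of them is not reported here), and the 2 most abundant of each comparison list, of which those a result turns on are given. A RefSeq table of GRCr8 served for older symbols and promoter sequences only. A planned comparison with the closest protein relatives was not run.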

Additional observations from a re-analysis of the deposited data

How the results depend on the processing

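Every alternative called 0 of the acinar members: the fit with no replicate block, RLE, upper quartile and TMM factors made without the acinar lists, no filter on low counts, a mean count of at least 50, DESeq2, limma voom, and each pair left out. The smallest adjusted p of a member was 0.116, for Cpb1 without pair 1 (log2 difference 2.64). The fit with no replicate block changed no call among the members or the other acinar genes, but it moved the members' fitted median from 1.35 to 0.87, Cpa1 from 1.37 to 0.79, Pnliprp1 from 1.16 to 0.65 and Rbpjl from 0.41 to 0.71. The members' fitted median of 1.35, over 8 members, lay between 0.10 and 2.54 when 1 pair was left out. Those 2 values, without pair 3 and without pair 1, are over 9 members, with Ptf1a. With 1 pair left out, the difference of Prss1 ranged from -0.28 to 1.58 and that of Rbpjl from -0.14 to 0.70, both reversed without pair 3. The 0 calls among other acinar genes became 1, Reg3b, without pair 1 and remained 0 otherwise. Over all genes the 2 calls became 0 with no replicate block, 1 with limma voom, 4 with upper quartile factors, 5 among genes averaging 50 counts or more, 18 when no filter was used and 106 with DESeq2, and 18 to 55 without 1 pair. Without Ctrb1, the most abundant member, the members' shares were 0.01154%, 0.04946% and 0.001549% in the controls of pairs 1 to 3 and 0.008912%, 0.07093% and 0.03332% in their partners. A prior count of 0.5 moved the difference of Ptf1a in pair 3 from 2.27 to 4.03. With 0 to 15 counts per library, depth limits the ratios of Ptf1a more than those of any other member.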
